A study of Mus musculus with 8 samples.

Results

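The genes described here are the ligands and receptors of the tumor necrosis factor (TNF) superfamily, the Traf adaptors and the Birc proteins, taken by their mouse symbols. A gene was a member when its symbol began with Tnfsf or Tnfrsf, was Traf or Birc followed by digits only, or was Tnf, Fas, Fasl, Lta or Ltb. This gave 47 of the 27727 genes in the deposited tables. They comprised 14 ligands, 20 receptors, 7 Traf adaptors, 5 Birc proteins and 1 antisense transcript, Tnfsf13os. Normalized counts were given for 42 of them, and 34 had a mean of at least 10 normalized counts over all libraries and were tested. The other 5 members had transformed values only. Tnfrsf17, Tnfsf8 and Tnfsf14 were not analysed here.

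RNA was sequenced from cultured 4T1 cells, a mouse mammary carcinoma line labelled as wild type. All cells received SKL2001, a compound that stabilizes β-catenin, overnight. Control cells received nothing else by their labels (Ctrl, n = 4, replicates 1 to 4), and hypomethylated cells also received decitabine overnight, a nucleoside analog that depletes DNA methyltransferases (Hypo, n = 4, replicates 2 to 5). The comparison asked how reduced DNA methylation altered expression in cells under canonical Wnt stimulation. Cells without SKL2001 were not part of the design, and DNA methylation itself was not measured in these libraries. All 8 libraries come from 1 cell line.

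TNF superfamily ligands are mostly trimeric proteins on the cell surface or shed from it, and each engages receptors that carry cysteine-rich domains. Receptors with a death domain, such as Fas, can assemble a caspase-activating complex. Others recruit Traf adaptors and the ubiquitin ligases Birc2 and Birc3 (cIAP1 and cIAP2), through which they switch on NF-κB. In the alternative branch of NF-κB, Traf3 together with Traf2 and these ligases keeps the kinase Map3k14 (NIK) at a low level. Decoy receptors bind ligand without passing on a signal. Many members are best known from lymphocytes, whereas carcinoma cells typically carry death receptors, Tnfrsf1a and Tnfrsf12a.

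Between 27486245 and 39388394 reads per library were assigned to genes. Levels below are normalized counts, in which the authors divided reads by a size factor for each library. Differences (Hypo minus Ctrl) and their SE are on the deposited transformed scale, which is like log2 for abundant genes and compressed for rare ones, since 0, 10, 100 and 1000 normalized counts correspond to 7.08, 7.47, 8.29 and 10.30. A member was said to have risen or fallen when limma gave a Benjamini-Hochberg adjusted p below 0.05 over all 15746 tested genes. An epithelial cell type was borne out by keratin and Epcam transcripts, which do not single out mammary cells. The 8 epithelial markers summed to 139970 to 157010 normalized counts in Ctrl and 129960 to 147430 in Hypo, and of them Elf3 and Epcam rose and Krt7 fell. Markers of the integrated stress response set Ctrl 3 apart, with a mean transformed value of 12.00 against 10.88 to 11.27 in the other Ctrl libraries and 11.26 to 11.66 in Hypo.

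Of the 34 tested members, 12 rose, 3 fell and 19 passed in neither direction. Over all tested genes 14.1% rose and 8.75% fell (22.8% in either direction). Quantile normalization moved the share of rises among all called genes from 61.7% to 48.1%, and with it 8 members rose and 2 fell, where 11.5% and 12.5% of all genes did. Receptors supplied 8 of the rises and 1 of the falls among 16 tested. Ligands gave 2 rises among 6 tested, Traf adaptors 1 rise and 2 falls among 7, and Birc proteins 1 rise among 4. In 11 members every Hypo library lay above every Ctrl library and in 2 every one lay below, against 15.4% and 10.3% of all tested genes (25.7% in either direction). The median difference was 0.05 over the tested members and 0.0035 over all tested genes. Only Tnf and Tnfsf13os entered the test through their Hypo level, with a Ctrl mean under 10, and among the other 32 members 11 rose and 3 fell.

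**Figure D1:**
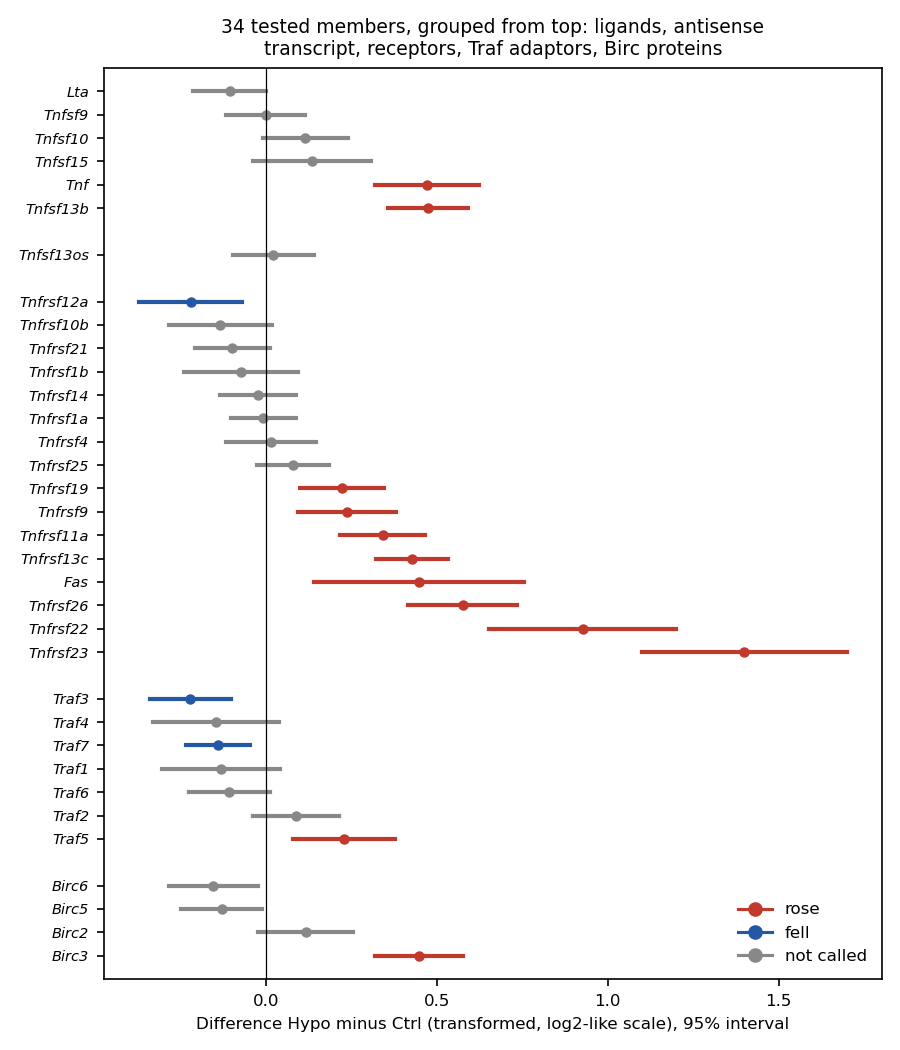
Difference between Hypo and Ctrl on the transformed, log2-like scale for the 34 tested members, with the 95% interval of the limma fit, grouped by role. The 12 members that rose are red, the 3 that fell are blue, and Tnfrsf23 lies farthest to the right at 1.40.

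The direction went with abundance. Among the 18 tested members with both group means below 1000 normalized counts, 10 rose and none fell, and the median difference was 0.23. In genes of this range 20.3% rose and 3.71% fell. Among the 16 members reaching 1000 in a group, 2 rose and 3 fell with a median of -0.12, where 6.32% of all such genes rose and 15.1% fell. The medians of all genes in these ranges had the same signs, at 0.04 and -0.04. Per kilobase of exon, Tnfrsf12a was the most abundant member in Ctrl (3170 normalized counts per kb), followed by Birc5 (1321), Traf7 (1198), Traf4 (763) and Tnfrsf1a (724). Every ligand with normalized counts except Tnfsf9, at 223 per kb, was under 20 per kb in Ctrl.

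Because decitabine acts on methylation at CG dinucleotides, the sequence before each start site was examined. RefSeq promoter windows of GRCm38.p6, from 250 bases before to 50 after the start, were matched for 39 of the 47 members. Where a gene had several windows, the first listed was used. The 4 windows printed here belong to members that rose (Tnfrsf23, Tnfsf13b and Tnf) and to the member that fell with the most CG (Traf3). Each is printed 5′ to 3′ on the strand of its gene, with every CG in capitals.
Tnfrsf23 promoter, chr7:143685826-143686125, minus strand: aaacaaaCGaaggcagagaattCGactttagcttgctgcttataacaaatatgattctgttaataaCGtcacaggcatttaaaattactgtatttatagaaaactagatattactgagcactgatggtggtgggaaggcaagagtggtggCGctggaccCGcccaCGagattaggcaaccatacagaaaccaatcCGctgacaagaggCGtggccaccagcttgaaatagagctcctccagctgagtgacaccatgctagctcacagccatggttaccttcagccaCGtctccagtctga
Tnfsf13b promoter, chr8:10006217-10006516, plus strand: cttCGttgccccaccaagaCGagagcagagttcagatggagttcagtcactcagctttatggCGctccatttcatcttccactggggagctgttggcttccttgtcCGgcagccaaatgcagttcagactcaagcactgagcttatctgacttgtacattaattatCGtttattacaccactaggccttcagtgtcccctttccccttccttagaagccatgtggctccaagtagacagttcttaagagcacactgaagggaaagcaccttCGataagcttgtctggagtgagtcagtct
Tnf promoter, chr17:35201958-35202257, minus strand: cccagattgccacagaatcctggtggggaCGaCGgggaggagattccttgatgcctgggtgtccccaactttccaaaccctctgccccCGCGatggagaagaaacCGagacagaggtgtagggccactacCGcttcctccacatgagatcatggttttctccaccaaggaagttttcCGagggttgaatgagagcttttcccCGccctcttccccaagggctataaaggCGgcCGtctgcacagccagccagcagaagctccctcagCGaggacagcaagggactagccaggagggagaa
Traf3 promoter, chr12:111166120-111166419, plus strand: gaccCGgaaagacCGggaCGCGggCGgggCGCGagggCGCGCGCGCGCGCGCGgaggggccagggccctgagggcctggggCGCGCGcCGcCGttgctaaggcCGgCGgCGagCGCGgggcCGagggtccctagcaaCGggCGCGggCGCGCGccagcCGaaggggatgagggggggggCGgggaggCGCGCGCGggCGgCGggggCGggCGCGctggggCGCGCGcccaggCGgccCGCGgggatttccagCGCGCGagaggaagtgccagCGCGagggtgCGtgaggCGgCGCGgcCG

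Few CG dinucleotides were scattered along the first 3 windows, 9 in Tnfrsf23, 6 in Tnfsf13b and 11 in Tnf, whereas Traf3 held 59 within the same 300 bases. Over the 10 members that rose and had a window, the median was 11.5 CG (4 to 43). It was 12.5 (2 to 34) over the 16 that did not pass the test and 20 (13 to 59) over the 3 that fell. All windows of the table had a median of 7. Among the 10963 of 15746 tested genes with a window the medians were 14 for those that rose, 22 for those that fell and 21 for the rest. Rising members and members without a call thus differed by 1 CG in the median, a description with no test. An NF-κB type motif of 3 G, 5 bases of any kind and 2 C in a row, searched on both strands with overlapping matches, occurred in 27 of the 39 member windows (69.2%) and in 50.4% of all windows. It occurred in 7 of the 10 rising members with a window, 3 of the 3 that fell, 10 of the 16 not called and 7 of the 10 not tested. The windows of all genes had a lower median CG (7) than the 39 member windows (11). The motif was not counted over the tested genes, so 50.4% is not a matched background. A match describes letters only.

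**Figure D2:**
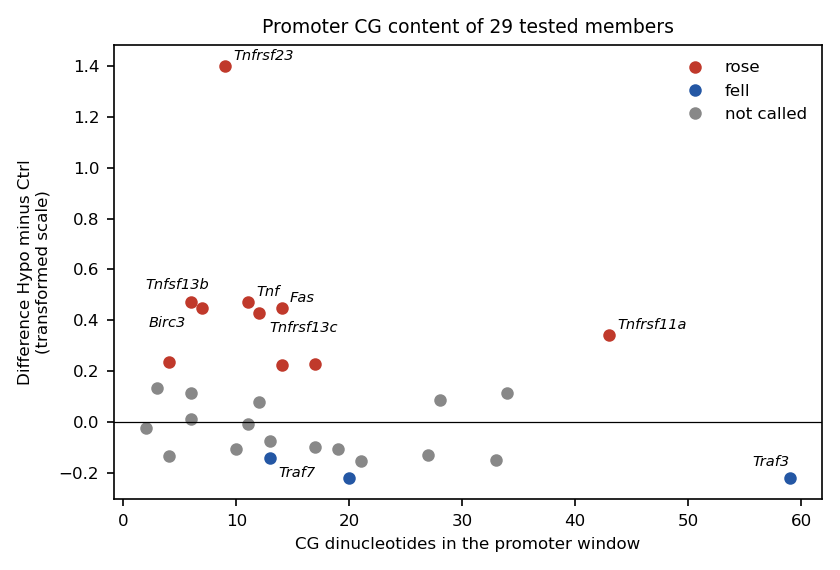
Number of CG dinucleotides in the promoter window (horizontal) against the difference between Hypo and Ctrl on the transformed scale (vertical) for the 29 tested members with a window. Rising members lie mostly between 4 and 17 CG, with Tnfrsf11a at 43, and Traf3 at 59 CG lies below 0.

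Tnf and Tnfsf13b were the 2 ligands that rose. Tnf, the founding inflammatory cytokine of the family (chromosome 17, 35199381 to 35202007 of GRCm38), had 10.2, 10.4, 8.15 and 9.40 normalized counts in Ctrl 1 to 4 and 37.0, 38.4, 44.1 and 81.6 in Hypo 2 to 5. All Hypo libraries exceeded all Ctrl libraries, and Hypo 5 stood above the other 3. The mean rose 5.26-fold, from 9.56 ± 1.04 to 50.3 ± 21.1 (SD, n = 4 each), with a difference of 0.47 ± 0.07 (SE, limma adjusted p = 4.58e-04). In these bulk libraries more cells transcribing a gene and more RNA per cell cannot be told apart.

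Tnfsf13b encodes BAFF, a survival factor for B cells. Its counts were 25.6, 22.6, 18.1 and 24.8 in Ctrl and 81.0, 86.4, 57.8 and 82.6 in Hypo, so the groups were well separated, with Hypo 4 the lowest of its group. The mean rose 3.38-fold, from 22.8 ± 3.36 to 77.0 ± 13.0 (difference 0.47 ± 0.05, limma adjusted p = 5.54e-05).

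Fasl, the ligand of Fas and a killing molecule of cytotoxic lymphocytes, was too rare for the tested set. It had 1.02, 2.61, 0.906 and 0.855 normalized counts in Ctrl and 8.10, 16.6, 9.18 and 25.6 in Hypo, from 6 reads in all of Ctrl and 62 in all of Hypo. The ratio was 11.1, with a 95% counting interval of 4.80 to 31.3 that covers counting error only. In the fit without a filter, where 14.3% of genes rose, it passed (difference 0.32, limma adjusted p = 0.00155). Every Hypo library was above every Ctrl library.

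The other ligands gave no call. Tnfsf10 (TRAIL), which binds death receptors, had 15.4, 21.7, 14.5 and 10.3 in Ctrl and 32.4, 27.9, 15.6 and 19.7 in Hypo. Its groups overlapped, with a difference of 0.11 ± 0.06 (limma adjusted p = 0.177). Tnfsf9, the ligand of Tnfrsf9, was the most abundant ligand and had means of 288 and 287 (difference -0.0014, 95% interval -0.12 to 0.12, limma adjusted p = 0.988). Tnfsf15 had means of 45.7 and 63.1 and Lta, which lies beside Tnf, 21.7 and 14.5 (limma adjusted p = 0.257 and 0.142). Lta thus had a negative difference where neighbouring Tnf rose. Under quantile normalization Lta was called lower (limma adjusted p = 0.0125).

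Ltb, the lymphotoxin subunit on the other side of Tnf, had means of 5.03 and 9.68 normalized counts. Its Hypo libraries lay above its Ctrl libraries, although the fit without a filter did not call it (limma adjusted p = 0.0980). Tnfsf4, Tnfsf13 and Tnfsf18 had means below 10 in both groups and were not called in that fit either, with adjusted p between 0.138 and 0.385. Tnfsf13os, on the strand opposite Tnfsf13, had means of 9.72 and 10.6 (limma adjusted p = 0.826). Exons of Tnfsf13 and Tnfsf13os share 221 bases on opposite strands. Strand use in counting was not stated, and reads of the pair may be mixed. On the same strand, Tnfsf13 shares 983 exon bases with Tnfsfm13, 60.05% of its exons. The treatment of reads in such shared exons was not stated either.

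Among the tested members, the largest differences on the transformed scale were in a chromosome 7 cluster of Tnfrsf26, Tnfrsf22 and Tnfrsf23, although by fold some rarer members changed more. In mouse, Tnfrsf22 and Tnfrsf23 are decoy receptors for Tnfsf10 that lack a functional death domain. The cluster spans 143607659 to 143685872 of GRCm38, with all 3 genes on the minus strand. Tnfrsf23 had 1186.5, 1258, 786 and 1278 normalized counts in Ctrl 1 to 4 and 3345, 3470, 2592 and 4127 in Hypo 2 to 5. Its lowest Hypo library was above its highest Ctrl library. The mean rose 3.0-fold, from 1127 ± 231 to 3384 ± 629 (difference 1.40 ± 0.14, limma adjusted p = 1.78e-05), the largest difference of any tested member.

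Tnfrsf22 had 3188, 3051, 2347 and 3332 in Ctrl and 5392, 5882, 4861 and 7601 in Hypo, again without overlap. The mean rose 1.99-fold, from 2980 ± 437 to 5934 ± 1187 (difference 0.93 ± 0.13, limma adjusted p = 2.30e-04). Tnfrsf26, a related receptor of mouse, was far less abundant. It had 132, 105, 87.8 and 119 in Ctrl against 251, 259, 202 and 297 in Hypo, and rose 2.27-fold, from 111 ± 19.0 to 252 ± 39.1 (difference 0.58 ± 0.07, limma adjusted p = 1.44e-04). In all 3 receptors Ctrl 3 was the lowest Ctrl library and Hypo 4 the lowest Hypo library. Without both libraries the differences were 1.38, 0.91 and 0.59 for Tnfrsf23, Tnfrsf22 and Tnfrsf26.

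Reads of the pair Tnfrsf22 and Tnfrsf23 are not fully separable. Their exons share 377 windows of 100 bases, which is 8.97% of the windows of Tnfrsf22 and 9.31% of those of Tnfrsf23, whereas Tnfrsf26 shares none with either. How reads that map to both genes were treated was not stated. The antisense transcript E230032D23Rik overlaps 164 exon bases of Tnfrsf23 and 107 of Tnfrsf26, and it also rose, from 10.1 ± 5.07 to 33.5 ± 4.27 (difference 0.33 ± 0.06, limma adjusted p = 0.00129). Its counts are small beside those of the receptors.

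**Figure D3:**
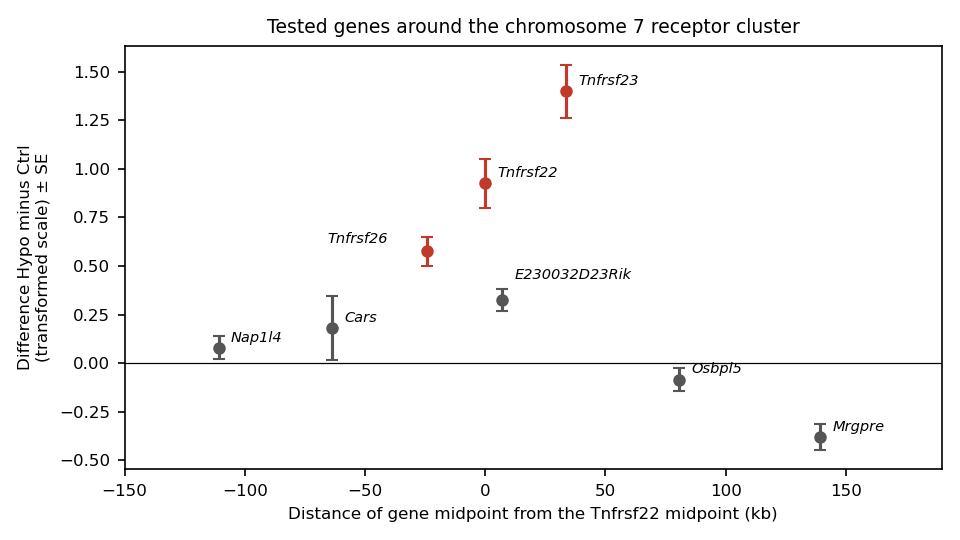
Difference between Hypo and Ctrl on the transformed scale (± SE) against the distance of each gene's midpoint from that of Tnfrsf22, in kb, for the tested genes within 100 kb of the cluster. The 3 receptors (red) lie at 0.58, 0.93 and 1.40, and flanking Nap1l4, Cars and Osbpl5 lie between -0.08 and 0.18.

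The rise did not extend to the flanking genes that were tested. Nap1l4, Cars and Osbpl5, within 100 kb of the cluster, were not called (limma adjusted p = 0.387, 0.468 and 0.329), and Mrgpre at the far side of Osbpl5 fell from 534 ± 47.2 to 360 ± 39.3 (limma adjusted p = 0.00131). Around Tnf, Lta and Ltb, 14 neighbours were not called and 3 rose (Apom, Ddx39b and H2-D1), where 14.1% of all tested genes rose. Apom entered the test through its Hypo level, with means of 5.54 and 17.1 and overlapping groups. Near Tnfrsf13c 6 tested neighbours, and near Tnfsf13b both tested neighbours, were not called.

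Tnfrsf13c, the BAFF receptor of B cells and hence the receptor for the product of Tnfsf13b, had 33.8, 35.6, 36.2 and 31.6 in Ctrl and 89.1, 106.5, 89.1 and 76.7 in Hypo. It had narrow Ctrl values and no overlap, and rose 2.63-fold, from 34.3 ± 2.07 to 90.3 ± 12.3 (difference 0.43 ± 0.05, limma adjusted p = 6.20e-05). Both partners of this ligand and receptor pair therefore rose, at levels of 11.2 and 44.1 normalized counts per kb in Hypo. Tnfrsf11a (RANK), the receptor that drives osteoclast formation and also mammary gland development, had 223, 231, 240.0 and 189.8 in Ctrl and 362, 332, 314 and 322 in Hypo. It rose 1.5-fold without overlap, from 221 ± 21.9 to 332 ± 21.1 (difference 0.34 ± 0.06, limma adjusted p = 0.00103).

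Tnfrsf9 (4-1BB), a costimulatory receptor of T cells, had 102, 158, 139 and 147 in Ctrl and 172, 186, 212 and 196 in Hypo. It rose 1.4-fold without overlap (difference 0.24 ± 0.07, limma adjusted p = 0.0214), but was no longer called without Ctrl 1 (adjusted p = 0.0611) or without Hypo 4 (adjusted p = 0.0527). Tnfrsf19 (TROY), a receptor found on stem cells of several epithelia, had 54.3, 39.98, 58.9 and 53.9 in Ctrl and 100.6, 79.5, 68.9 and 82.6 in Hypo. It rose 1.6-fold (difference 0.22 ± 0.06, limma adjusted p = 0.0135), with every Hypo library above the Ctrl libraries. Under quantile normalization the differences fell to 0.12 for Tnfrsf9 and 0.09 for Tnfrsf19, and neither was called (adjusted p = 0.211 and 0.262).

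Fas, the best known death receptor, had 256, 331, 454 and 423 in Ctrl and 561, 482, 839 and 452 in Hypo. The groups overlapped, since Hypo 5 was just under Ctrl 3, and Hypo 4 stood highest. Its mean rose 1.59-fold, from 366 ± 89.9 to 584 ± 176 (difference 0.45 ± 0.14, limma adjusted p = 0.0386). This call was lost without Ctrl 1, Ctrl 2, Hypo 2 or Hypo 4, with adjusted p of 0.116, 0.0997, 0.0842 and 0.0770. The difference without Hypo 4 was 0.31. Quantile normalization and DESeq2 did not call Fas either (adjusted p = 0.0631 and 0.0666).

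Tnfrsf12a, the receptor of TWEAK and the most abundant receptor per kb, fell. Its counts were 6359, 5852, 6141 and 6143 in Ctrl and 5191, 5136, 4578 and 6042 in Hypo, where Hypo 5 lay within the Ctrl range. The mean fell from 6124 ± 208 to 5237 ± 604, 0.855 of Ctrl (difference -0.22 ± 0.07, limma adjusted p = 0.0375). It was not called without any single one of Ctrl 1, Ctrl 2, Ctrl 4, Hypo 2, Hypo 3 or Hypo 4, with adjusted p of 0.0549 to 0.104, or under quantile normalization (adjusted p = 0.0966).

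The principal signaling receptors for TNF and TRAIL gave no call. Tnfrsf1a, the death domain receptor for TNF, had 1844, 1865, 1844 and 1947 in Ctrl and 1873, 1793, 1845 and 1939 in Hypo. Its overlapping values left an interval of -0.10 to 0.09 around a difference of -0.0089 (limma adjusted p = 0.912). Tnfrsf1b, the other TNF receptor, had 1426, 1548, 1816 and 1517 in Ctrl and 1503, 1414, 1698 and 1331 in Hypo (difference -0.07, interval -0.24 to 0.09, limma adjusted p = 0.538). Tnfrsf10b, the signaling receptor for Tnfsf10 in mouse, had 2042, 2271, 2053 and 2525 in Ctrl and 1869, 1904, 2039 and 2185 in Hypo. Its difference was -0.13 (interval -0.28 to 0.02, limma adjusted p = 0.189). The decoys Tnfrsf22 and Tnfrsf23 thus rose in cells in which Tnfrsf10b was not called, and the difference between these effects was not tested.

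Of the remaining receptors, Tnfrsf21 was abundant, with means of 1610 and 1488, and was not called (limma adjusted p = 0.182). Tnfrsf4, Tnfrsf14 and Tnfrsf25 had means between 15.7 and 22.8 normalized counts, and their adjusted p ranged from 0.277 to 0.904. Tnfrsf8 (CD30), known from activated lymphocytes, had 0, 0.869, 0.906 and 0.855 in Ctrl and 6.94, 10.5, 3.67 and 6.89 in Hypo. That is 3 reads in all of Ctrl and 29 in all of Hypo, a ratio of 10.3 with a counting interval of 3.20 to 53.0. Tnfrsf11b (osteoprotegerin), a secreted decoy for the ligand of Tnfrsf11a, had 13 and 41 reads, a ratio of 3.37 (1.77 to 6.86). Both were called in the fit without a filter (limma adjusted p = 0.00363 and 0.0152), and neither overlapped between groups. Tnfrsf18 had means of 6.82 and 9.64 and was not called there (adjusted p = 0.397).

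**Figure D4:**
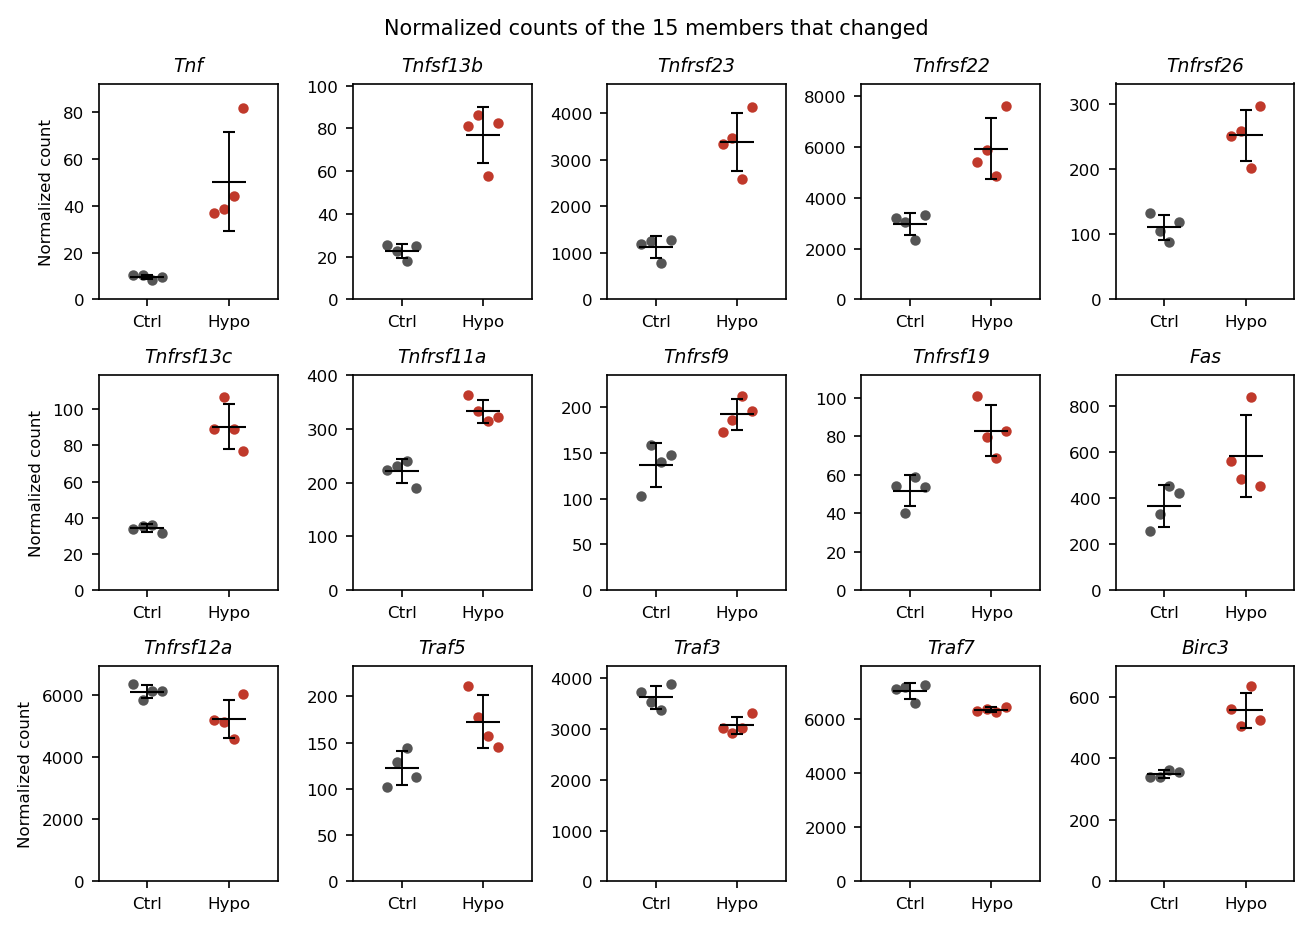
Normalized counts per library of the 15 members that rose or fell, Ctrl in grey (n = 4) and Hypo in red (n = 4), with horizontal lines at the mean and error bars of 1 SD on linear axes from 0. Points are in replicate order from left to right within a group, and the Hypo points of Fas and Tnfrsf12a reach into the Ctrl range.

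The 5 members with transformed values only were at the limit of detection, and their values correspond to whole reads. Tnfrsf13b (TACI), a further receptor for BAFF, had no reads in Ctrl, which allows up to 3 reads over the group, and 1, 1, 6 and 4 in Hypo 2 to 5. Tnfsf11 (RANKL), the ligand of Tnfrsf11a, had no reads in Ctrl and 2, 5, 0 and 2 in Hypo. Tnfsf12 (TWEAK) had none in Ctrl and 1, 3, 1 and 0 in Hypo. Tnfsfm13, which shares exons with Tnfsf12 and Tnfsf13, had 3 reads in Ctrl and 4 in Hypo. It shares 731 exon bases with Tnfsf12 on the same strand, 48.25% of the exons of Tnfsf12. How reads in shared exons were counted was not stated, so the low Tnfsf12 counts may understate its RNA. Birc7 had 7 and 2. In these counts the ligands of Tnfrsf11a and Tnfrsf12a were barely seen, and no fold was computed.

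Among the 7 Traf adaptors, all of which were tested, Traf5 rose and Traf3 and Traf7 fell. Traf3, the adaptor that holds back alternative NF-κB signaling, had 3719.5, 3518, 3369 and 3880 in Ctrl and 3011, 2921, 3023 and 3316 in Hypo. No Hypo library reached the lowest Ctrl library. The mean fell from 3622 ± 224 to 3068 ± 172, 0.847 of Ctrl (difference -0.22 ± 0.05, limma adjusted p = 0.0120).

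Traf7 had 7119, 7167, 6591 and 7249 in Ctrl and 6304, 6357, 6269 and 6457 in Hypo, without overlap but with Ctrl 3 close to Hypo. It fell to 0.903 of Ctrl (difference -0.14 ± 0.04, limma adjusted p = 0.0351), and was not called without any one of Ctrl 1, Ctrl 2, Ctrl 4, Hypo 2, Hypo 3 or Hypo 4 (adjusted p = 0.0695 to 0.105). Traf5, an adaptor of several costimulatory receptors, was the least abundant, with 102, 130, 144 and 113 in Ctrl and 211, 177, 157 and 146 in Hypo. Its lowest Hypo value was just above its highest Ctrl value. It rose 1.41-fold (difference 0.23 ± 0.07, limma adjusted p = 0.0315), a call that was lost without Ctrl 1, Ctrl 2, Ctrl 4, Hypo 2 or Hypo 3 (adjusted p = 0.0563 to 0.0996). Under quantile normalization the differences of Traf7 and Traf5 shrank to -0.08 and 0.10, and neither was called (adjusted p = 0.185 and 0.255). Exons of Traf7 share 267 bases with Rab26 and 110 with Caskin1, and those of Traf5 share 205 bases with the antisense gene Gm26879, so some of their reads may be mixed.

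Traf2, the central adaptor of the TNF receptor complex, had 878, 910, 1042 and 981 in Ctrl and 1063, 944, 1065 and 1034 in Hypo (difference 0.09 ± 0.06, limma adjusted p = 0.314). Traf1, itself a target of NF-κB, had 1325, 1326, 1734 and 1355 in Ctrl and 1372, 1228, 1366 and 1162 in Hypo. Its Ctrl 3 value stood out from an otherwise tight group, and the difference was -0.13 ± 0.08 (limma adjusted p = 0.259). Traf4 and Traf6 had differences of -0.15 and -0.11 and were not called (limma adjusted p = 0.242 and 0.184). Without Hypo 5, Traf4 was called lower (difference -0.24, adjusted p = 0.0185).

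Birc3 was the Birc gene that rose. This ubiquitin ligase of the TNF receptor complex is itself induced by NF-κB. It had 339, 339, 363 and 356 in Ctrl and 561, 506, 634 and 524 in Hypo, far apart relative to the spread. The mean rose 1.59-fold, from 349 ± 12.1 to 556 ± 57.0 (difference 0.45 ± 0.06, limma adjusted p = 1.90e-04). Its close relative and neighbour Birc2 on chromosome 9 had 1234, 1269, 1415 and 1147 in Ctrl and 1470, 1402, 1442 and 1253 in Hypo. Birc2 overlapped between groups (difference 0.12 ± 0.06, limma adjusted p = 0.219), and was called higher without Ctrl 3 (adjusted p = 0.0468). Birc2 and Birc3 share 15 windows of 100 bases, 0.330% and 0.297% of each. Neighbouring Tmem123 and Yap1 fell.

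Birc5 (survivin), a protein of dividing cells, had 4751, 4503, 4116 and 4605 in Ctrl and 3803, 4148, 4068 and 4301 in Hypo. The groups overlapped because of Ctrl 3, with a difference of -0.13 ± 0.05 (limma adjusted p = 0.106), and without Ctrl 3 it was called lower (difference -0.17, adjusted p = 0.0173). Birc6, a very large ligase, had means of 10597 and 9482 and a difference of -0.15 ± 0.06 (limma adjusted p = 0.0868), which also passed without Ctrl 3 (adjusted p = 0.00702).

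Genes of the superfamily that carry other names were read as a list of 10, of which 6 were tested. Ngfr and Relt rose and Eda fell, beside 14.1% and 8.75% of all tested genes, with a median difference of 0.13. Ngfr, the low-affinity neurotrophin receptor, had 90.2, 171, 110 and 133 in Ctrl and 468, 430, 266 and 446 in Hypo. It rose 3.19-fold without overlap (difference 0.90 ± 0.11, limma adjusted p = 1.24e-04), a difference below those of Tnfrsf23 and Tnfrsf22 only among the receptors tested. The calls of Relt (adjusted p = 0.0420) and Eda (adjusted p = 0.0476) were each lost without 7 of the 8 libraries, the exceptions being Hypo 4 for Relt and Ctrl 2 for Eda.

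Genes acting directly below the receptors were read as a list of 23 adaptors and complex proteins, of which 3 rose and none fell, beside 14.1% and 8.75% of all tested genes. Their median difference was 0.11, and 5 rose and 1 fell without Ctrl 3. Without Ctrl 2, Hypo 2, Hypo 3 or Hypo 5, 2 rose. Ripk3, the kinase of necroptosis, changed by far the most. It had 0, 0, 1.81 and 2.56 normalized counts in Ctrl and 81.0, 81.2, 64.3 and 98.4 in Hypo. That is 5 reads in all of Ctrl and 333 in all of Hypo, a ratio of 71.2 with a counting interval of 30.2 to 221 (difference 0.996 ± 0.062, limma adjusted p = 3.91e-07), and it entered the test through its Hypo level only. Cyld, a deubiquitinase that restrains NF-κB, rose 1.23-fold from 4527 ± 404 to 5565 ± 275 (limma adjusted p = 0.00532). Tbk1 rose 1.14-fold (limma adjusted p = 0.0249), and was not called without Ctrl 2, Hypo 2, Hypo 3 or Hypo 5 (adjusted p = 0.0508 to 0.0825).

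Within the 19 core NF-κB genes, all tested, 5 rose, 2 fell and 12 gave no call, with a median difference of 0.03, where 14.1% and 8.75% of all tested genes rose and fell. Only 1 fell without Ctrl 1, Ctrl 2, Ctrl 4, Hypo 2 or Hypo 5. Relb, the partner of the alternative pathway, had 408, 439, 724 and 458 in Ctrl and 1053, 780, 914 and 889 in Hypo. Its groups did not overlap, and it rose 1.79-fold (difference 0.64 ± 0.12, limma adjusted p = 0.00177). Rel and Chuk rose 1.3-fold and 1.18-fold (limma adjusted p = 0.00502 and 0.00570), and Nfkb2, which encodes the precursor p100, rose 1.27-fold (adjusted p = 0.00987). Nfkbia rose 1.48-fold (adjusted p = 0.0360), a call lost without any one of Ctrl 1, Ctrl 2, Ctrl 4, Hypo 2, Hypo 4 or Hypo 5 (adjusted p = 0.0545 to 0.109). Map3k14, the kinase of the alternative pathway, fell from 1113 ± 52.1 to 893 ± 82.5 (limma adjusted p = 0.00852), beside the fall of Traf3. Both are RNA levels, and Map3k14 protein was not measured in these libraries. Tab3 fell to 0.889 of Ctrl (adjusted p = 0.0359), and was not called without Ctrl 1, Ctrl 2, Ctrl 4, Hypo 2, Hypo 4 or Hypo 5 (adjusted p = 0.0587 to 0.120).

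**Figure D5:**
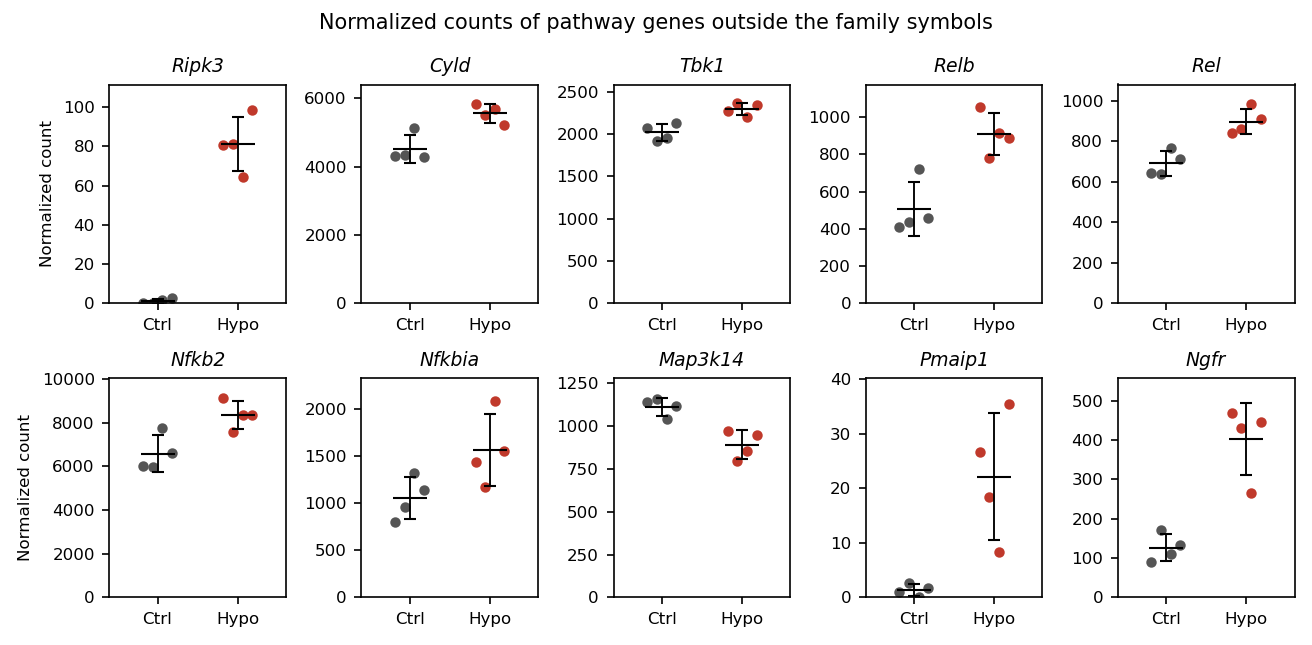
Normalized counts per library for 10 pathway genes named in the text, Ctrl in grey and Hypo in red (n = 4 each), with the mean and 1 SD on linear axes from 0. Ripk3 and Pmaip1 start near 0 in Ctrl, Map3k14 is the gene drawn that fell, and Nfkb2 and Nfkbia overlap between groups.

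Textbook NF-κB target genes moved in both directions. Of 21 tested among 23, 6 rose, 1 fell and 14 gave no call, with a median difference of 0.13, where 14.1% and 8.75% of all tested genes rose and fell. Without Hypo 4, 4 fell, and without both Ctrl 3 and Hypo 4, 8 rose and 5 fell. The chemokine gene Cxcl10 rose 4.14-fold, from 119 ± 18.5 to 492 ± 97.9, and the protease gene Mmp9 rose 2.50-fold, from 891 ± 124 to 2231 ± 642 (limma adjusted p = 2.53e-06 and 1.53e-04). Ccl5, Cxcl2, Icam1 and Il6 were the other rises, and Il6 entered the test through its Hypo level. Csf1, the macrophage growth factor, fell from 7058 ± 531 to 4915 ± 433 (limma adjusted p = 2.24e-04). Mean transformed values of the list overlapped between groups, at 10.02 to 10.36 in Ctrl and 10.20 to 10.78 in Hypo, with Hypo 4 highest. Cxcl10 and Ccl5 also respond to interferon. In a list of 15 interferon response genes 10 of 14 tested rose and 0 fell, against the same 14.1% and 8.75% of all tested genes. Led by Oasl1, Usp18 and Oasl2, these genes had a median difference of 0.47. Their mean transformed value was 9.13 to 9.40 in Ctrl and 9.72 to 9.86 in Hypo. The part of the interferon response in the rise of the members was not tested.

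In the core apoptosis machinery, 2 of 20 genes rose, 2 fell and 16 gave no call, with a median difference of -0.03, where 14.1% and 8.75% of all tested genes rose and fell. Without Ctrl 3, 3 rose and 4 fell, without both Ctrl 3 and Hypo 4, 3 rose and 6 fell, and without Ctrl 1, Hypo 3 or Hypo 5 only 1 fell. Pmaip1 (Noxa), which neutralizes Mcl1, went from 6 reads in all of Ctrl to 89 in all of Hypo, a ratio of 15.9 with a counting interval of 7.01 to 44.4 (limma adjusted p = 0.00116), and it entered the test through its Hypo level only. Mcl1, a protector against apoptosis, fell from 4067 ± 233 to 3302 ± 137 (limma adjusted p = 0.00193). Bcl2 also fell (adjusted p = 0.0269), and was not called without Ctrl 1, Hypo 3 or Hypo 5 (adjusted p = 0.0567 to 0.0707). In the integrated stress response list Atf3 rose 1.85-fold (limma adjusted p = 0.00384), and Ddit4 and Chac1, next by p, gave no call (adjusted p = 0.0572 and 0.309). Without Ctrl 3, 4 of these 10 genes rose, and without both Ctrl 3 and Hypo 4, 5 did, while 1 fell without Ctrl 4 or Hypo 2.

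Since several members that were higher in Hypo are best known from cells of the immune system, markers of immune cells were read beside them. Of 16 markers, 8 had normalized counts, 4 were tested and 2 rose, where 14.1% of all tested genes rose. Ptprc (CD45), shared by nearly all white blood cells, rose from 9.26 ± 1.48 to 35.5 ± 5.55, and Csf1r, of macrophages, rose from 110 ± 4.40 to 279 ± 76.9 (limma adjusted p = 1.25e-04 and 6.21e-04), while Cd68 was not called (adjusted p = 0.0861). Ptprc entered the test through its Hypo level. The fourth tested marker, Lyz2 of macrophages and granulocytes, had means of 21.0 and 15.6 and was not called (difference -0.08, limma adjusted p = 0.323), but was called lower under quantile normalization (adjusted p = 0.0273). Cd79a, of B cells, had 3.35 ± 1.15 and 7.31 ± 1.10 normalized counts without overlap, and the fit without a filter did not call it (adjusted p = 0.0886). Cd4 was above 0 in 1 Ctrl and 3 Hypo libraries, and Adgre1 in 3 Ctrl and 3 Hypo libraries. Itgax had means of 3.39 and 4.78 and S100a8 of 7.31 and 12.6, both with overlapping groups. Itgam had means of 0.700 and 3.21 without overlap. The fit without a filter did not call Itgax, S100a8 or Itgam (limma adjusted p = 0.438, 0.202 and 0.0589). The 8 markers summed to 376 to 684 normalized counts in Ctrl and 805 to 1029 in Hypo, most of it from Cd68 and Csf1r. The lymphocyte markers Cd3e, Cd8a, Ms4a1, Nkg7 and Klrb1c were not analysed here. The part of immune transcripts in the rise of these members was not tested.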

How the data were processed

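Poly(A) RNA of 8 libraries of 4T1 cells was made into stranded libraries, and per the study's methods the authors trimmed reads, aligned them with STAR to GRCm38 with its release 96 annotation and counted reads per gene in htseq-count mode. Their processing notes also name bcl2fastq, HTSeq and DESeq2. Strand use in counting and the treatment of multiply mapped reads are not given in the sources used here. The authors deposited normalized counts (a signal, reads divided by a DESeq2 size factor) for 23606 genes and variance-stabilized values on a log2-like scale for 27336 genes, 23215 of them in both. Whole reads could be recovered from 100% of normalized counts within a tolerance of 0.01. The deposited table also holds the authors' own comparison in 6 columns, namely the mean signal, the log2 fold change and its SE, the Wald score, and p-values before and after adjustment, none of which was used.

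Samples were grouped and numbered by their titles. Nothing states that libraries of a group were separate cultures. P-values therefore reflect the spread among these libraries, possibly only technical. The test was limma 3.58.1 (two-sided, moderated with a mean-variance trend) in R 4.3.3 on the deposited log2-like values of the 15746 genes with a mean of at least 10 normalized counts, with Benjamini-Hochberg adjustment over all of them and a threshold of 0.05. Folds are ratios of group means of normalized counts. Counting intervals cover counting error only. The limma and edgeR fits were tested on simulated data. Positions are from the GENCODE annotation of GRCm38, and promoter windows (250 bases before to 50 after the start) from RefSeq.

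The members and gene lists were chosen with earlier results of these data known. The text gives values per library for called members with a group mean of at least 30, for members at or near 0 in 1 group, and for Tnf, Fas, Tnfrsf1a, Tnfrsf1b, Tnfrsf10b, Tnfsf10, Traf1, Traf2, Traf3, Birc2, Birc3 and Birc5. From each list it names the 3 genes with the smallest p, except for an item that is not reported here. Further called list genes and flanking genes were named after their values were seen. Alternatives were other filters, scales and scalings, array weights, the replicate number as a block, each library left out, and edgeR 4.0.16 and DESeq2 1.42.0 on the recovered reads.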

Additional observations from a re-analysis of the deposited data

Results flagged for a closer look

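Within groups of 4 libraries, the highest or lowest value of 6 member groups stood far from the nearest other library relative to the range. By chance such a case would arise in about 1 of every 20 groups, and 84 groups were examined. Tnf was at 81.6 normalized counts in Hypo 5, against 37.0 to 44.1 in the other Hypo libraries. Tnfsf15 was at 98.2 in Hypo 4, with the next Hypo library at 54.4. Traf1 was at 1734 in Ctrl 3, with the next at 1355. Tnfsf9 was lowest at 270.7 in Hypo 3, where the other Hypo libraries lay between 292 and 294. Fasl was at 2.61 in Ctrl 2, with the next at 1.02, and Tnfrsf8 was at 0 in Ctrl 1 beside values of 0.855 to 0.906, both differences of 1 or 2 reads. Outside the table of normalized counts, Tnfrsf13b had a mean transformed value of 7.28 in Hypo and 7.08, the value of 0 reads, in Ctrl.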

How the results depend on the processing

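Birc3, Tnfrsf11a, Tnfrsf13c, Tnfrsf22, Tnfrsf23 and Tnfrsf26 were called in all 21 fits, and Tnf and Tnfsf13b in all 20 that tested them. Between 8 and 15 members rose over all fits (9 to 13 when 1 library was left out). The count that fell was less stable. It was 3 as reported, 8 with array weights, 2 with quantile normalization, 4 with DESeq2 and 1 to 5 when 1 library was left out. It was 1 without any one of Ctrl 1, Ctrl 2, Ctrl 4, Hypo 2, Hypo 3 or Hypo 4 and 5 without Ctrl 3. Without both Ctrl 3 and Hypo 4, 12 rose and 4 fell. Where a member was called in any fit, its direction was that of the reported fit. Samples with the same replicate number did not deviate together (correlations of -0.11, -0.21 and -0.17). Pairs with unlike numbers ranged from -0.59 to 0.52. These correlations gave no sign that the numbers pair the samples, but cannot exclude it. With the replicate number as a block, 8 members rose and 0 fell, where 8.15% and 2.04% of all genes did. That fit did not call Fas, Tnfrsf9, Tnfrsf12a, Tnfrsf19, Traf3, Traf5 or Traf7 (adjusted p = 0.0544 to 0.252). In it 1 of the core NF-κB genes and 1 of the adaptors rose and none fell, and of the apoptosis genes 1 rose and 1 fell. Depth limits the rare members, since a gene with 10 normalized counts rests on about that many reads per library. Over all genes the calls that rose made up 70.7% without a filter and 51.1% with a minimum of 50.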
